A study of Homo sapiens with 7 samples.

Results

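The regions described here are the m6A peaks that lie in coding sequence and in an exon of 400 to under 1500 nt. They were taken from a deposited table by the authors' own annotation of each peak, keeping those whose segment is coding sequence and whose exon length falls in that range. There were 2070 such peaks among 12769 in all (16.2%, 95% Wilson interval 15.6 to 16.9%), and among 4547 coding sequence peaks (45.5%, 44.1 to 47.0%). A further 390 coding sequence peaks lay in exons under 400 nt and 2087 in exons of 1500 nt and over. The choice used the segment and the exon length only, and neither the peak score, the sequence nor the place within the exon.

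The RNA was from HepG2, as labelled, a line derived from a human hepatocellular carcinoma, untreated in every library. Poly(A) RNA was cut chemically to a length of roughly 100 nt and pulled down with an anti-m6A antibody, which gave 4 m6A-IP libraries beside 3 input libraries. The deposited table holds 1 value for all 7 libraries together, so sequencing depth, replicate error and a test of m6A-IP against input are not given here. All intervals below cover counting error only, since peaks and genes are not replicates, and none of the differences below was tested.

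N6-methyladenosine (m6A) is an adenosine methylated at its N6 position, written on messenger RNA in the nucleus by a complex of METTL3 and METTL14 with WTAP and further adaptors. It sits in the consensus RRACH, where R is A or G and H is A, C or U (T in the DNA letters used below), and is known to gather near stop codons and inside long internal exons. Proteins with a YTH domain bind the mark and are linked to splicing, translation and decay of the RNA.

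Of 12 liver marker genes looked up in the table, 6 were at its lowest expression quantile of 0.314, among them ALB (albumin), AFP (alpha-fetoprotein) and APOB. The highest was the fibrinogen chain gene FGB at a quantile of 0.619, and none had a peak. Among 8 markers of other lineages, the epithelial keratin KRT7 stood at 0.998, the transcription factor NKX2-1 at 0.696 and the mucin MUC16 at 0.667. PAX8 was at 0.496, SFTPB at 0.376 and WT1 at 0.333, and the remaining 2 were at the lowest quantile. The defining liver genes therefore went against the labelled line, and the cells are called by their label throughout. The part of this in the results below was not tested.

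Sequences of 101 nt, centred on the listed peak position, are shown for 5 of the highest-scoring member peaks, from transcripts that matched GENCODE release 29 exactly and with the whole window inside the exon. They show what surrounds a strong peak of this kind, and capitals mark RRACH.
RAVER2: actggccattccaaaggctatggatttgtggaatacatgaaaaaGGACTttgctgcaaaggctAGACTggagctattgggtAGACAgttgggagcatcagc
COL12A1: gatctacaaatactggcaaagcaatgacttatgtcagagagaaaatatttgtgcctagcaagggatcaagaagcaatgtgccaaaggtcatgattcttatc
C5orf22: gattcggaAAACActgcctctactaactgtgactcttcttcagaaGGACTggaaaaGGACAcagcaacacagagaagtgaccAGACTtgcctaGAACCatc
PTPN13: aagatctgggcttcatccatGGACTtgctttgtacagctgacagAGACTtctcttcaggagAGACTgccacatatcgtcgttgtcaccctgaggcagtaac
MLL2: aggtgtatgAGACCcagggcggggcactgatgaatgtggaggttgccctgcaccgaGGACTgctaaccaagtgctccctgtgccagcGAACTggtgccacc

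In GRCh38 the RAVER2 window, in exon 3 of a gene for an RNA-binding protein, is chr1:64777841-64777941 on the plus strand. The COL12A1 window, in exon 10 of a fibril-associated collagen gene, is chr6:75183297-75183397 on the minus strand. The C5orf22 window, in exon 4, is chr5:31538438-31538538 on the plus strand. The PTPN13 window, in exon 7 of a tyrosine phosphatase gene, is chr4:86701495-86701595 on the plus strand. The MLL2 window, in exon 48 of the gene for a histone H3 lysine 4 methyltransferase now named KMT2D, is chr12:49026663-49026763 on the minus strand. Of the 5 windows, 4 hold GGACT and at least 3 RRACH matches each. COL12A1, with a score of 5.93, holds no RRACH and 1 match to the wider DRACH (D is A, G or T).

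Among the lowest-scoring matched peaks, 2 are shown for contrast, ESPL1 with a score of 2.05 and RNF8 with 2.01, together with the other 3 peaks of the same ESPL1 exon. ESPL1 encodes separase, the protease that cuts cohesin at anaphase, and RNF8 encodes a ubiquitin ligase of the DNA damage response. The ESPL1 windows carry the peak's position in the transcript.
ESPL1 at 265: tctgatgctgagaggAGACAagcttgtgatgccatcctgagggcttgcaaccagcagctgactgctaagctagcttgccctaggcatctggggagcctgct
ESPL1 at 504: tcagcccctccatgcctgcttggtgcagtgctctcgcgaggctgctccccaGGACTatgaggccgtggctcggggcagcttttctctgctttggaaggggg
ESPL1 at 892: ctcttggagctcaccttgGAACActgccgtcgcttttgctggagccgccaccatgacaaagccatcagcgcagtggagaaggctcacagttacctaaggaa
ESPL1 at 1124: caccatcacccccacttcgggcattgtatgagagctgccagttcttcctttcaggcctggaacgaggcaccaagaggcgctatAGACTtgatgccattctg
RNF8: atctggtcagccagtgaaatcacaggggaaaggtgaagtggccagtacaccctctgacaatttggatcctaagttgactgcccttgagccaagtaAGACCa

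The ESPL1 windows run from chr12:53269066-53269166 through chr12:53269305-53269405 and chr12:53269693-53269793 to chr12:53269925-53270025 in GRCh38, all in exon 3 on the plus strand. The RNF8 window is chr6:37368789-37368889 on the plus strand, in exon 3. Each of these 5 windows holds 1 RRACH match. In ESPL1 the highest of the 4 scores, 4.29, belonged to the window with GGACT, and the others were 3.73, 3.23 and 2.05.

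The 2070 peaks fell in 1518 transcripts, each of a different gene symbol, and in 1697 exons. Scores ran from 2.00 to 6.68, with quartiles of 2.57, 3.25 and 4.10. The score is the authors' own value per peak on a scale that is not stated, so it serves here only to rank and describe peaks. Exons ran from 401 to 1499 nt with a median of 790.5 nt, and the median exon number was 4. Exon 1 held 252 of the peaks (12.2%), and exons numbered 10 or higher held 516 (24.9%).

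The highest-scoring member peak was in SAMD4A, which encodes an RNA-binding translational repressor, at 6.68 in exon 2 of 519 nt. It was the gene's only peak. XIAP, an inhibitor of caspases, followed with 6.66 in exon 2 of 909 nt, also its only peak. PBRM1, a subunit of a SWI/SNF chromatin remodelling complex, had 6.52 in exon 15 of 643 nt, against 2.89 for its other coding sequence peak. In the table's own coordinates, whose build is not given in the sources used here, these genes span 54104387 to 54325595 of chromosome 14 plus strand, 122821729 to 122875503 of chromosome X plus strand and 52554408 to 52688779 of chromosome 3 minus strand.

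NUP153, a nucleoporin, had a score of 6.43 in exon 16 and a second member peak of 4.03 in exon 18. TRAF6, a ubiquitin ligase of innate immune signalling, had 6.41 and 5.54 in the same exon of 1478 nt, above its stop codon peak of 3.78 and its transcript start peak of 3.71. RAVER2 had 6.34, against 3.64 in its 3' UTR. FUT10, a fucosyltransferase gene, had 6.30 in exon 4, and KIAA1244 had 6.29 in exon 12 beside a second member peak of 4.46. CCDC18 had 6.27 in exon 1 as its only peak. TROAP, which encodes the spindle-associated protein tastin, had 6.22 in exon 13 beside a transcript start peak of 2.04. Of these 10 genes, TROAP alone had an expression quantile above 0.9, at 0.940.

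At the lower limit of exon length, KIFC1 and UTP14A (401 nt) had scores of 2.33 and 2.32 just inside, while SAFB2 and GDF11 (398 nt) had 2.92 and 2.88 just outside. At the upper limit, both SRCAP peaks (1499 nt) had 4.89 and 4.02 just inside, and both CNNM4 peaks (1500 nt) had 4.34 and 3.57 just outside.

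Median scores were higher with each step of exon length up to 600 to 800 nt, and no longer step had a higher median. The median score was 2.48 in 76 coding sequence peaks of exons under 200 nt, 2.64 at 200 to 300 nt and 2.94 at 300 to 400 nt. It was 3.11 at 400 to 500 nt, 3.23 at 500 to 600 nt and 3.46 (95% interval 3.32 to 3.58) at 600 to 800 nt. From 800 nt to 1500 nt it lay between 3.16 and 3.33, and in exons of 1500 nt and over between 3.08 and 3.18. The members as a whole had a median of 3.25 (3.19 to 3.33), against 2.73 (2.64 to 2.83) in shorter exons and 3.12 (3.07 to 3.18) in longer ones. Peaks around the stop codon had a median of 3.45 (3.39 to 3.50). Within the members the medians did not change in 1 direction with exon length, and the Spearman correlation of score and exon length was 0.03 across 2070 peaks, which share transcripts and exons.

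**Figure D1:**
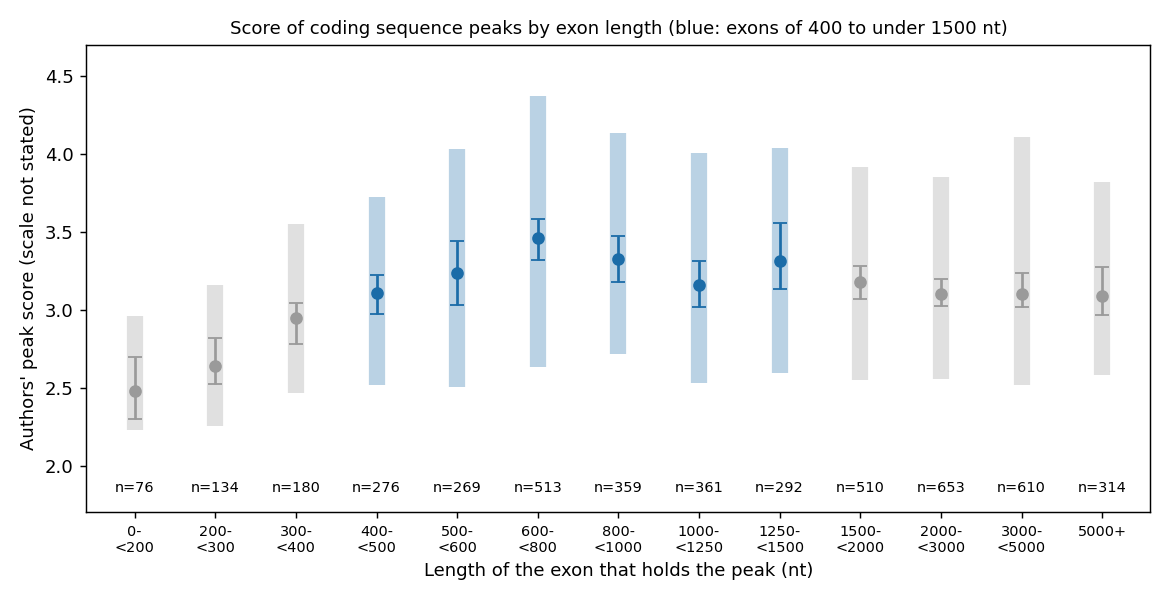
Authors' peak score (vertical axis, scale not stated) of coding sequence peaks by the length of their exon (horizontal axis, nt). Points are medians with 95% intervals, shaded bars run from the lower to the upper quartile and n counts peaks; medians are 2.48 under 200 nt and 3.46 at 600 to 800 nt, and lie between 3.08 and 3.33 above 800 nt.

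The score also varied with expression, given as a quantile of all transcripts. Median member scores were 3.62 below a quantile of 0.6, 3.33 at 0.6 to 0.7, 3.27 at 0.7 to 0.8, 3.22 at 0.8 to 0.9 and 2.97 (2.85 to 3.09) above 0.9. In exons under 400 nt the medians over the same bins were 3.73, 3.05, 2.75, 2.52 and 2.64. In exons of 1500 nt and over they were 3.43, 3.08, 3.10, 3.03 and 3.06. Above 0.9 the interval of the members overlapped that of the longer exons (2.90 to 3.27), and the medians stood in the opposite order to the whole set. The Spearman correlation of score and quantile was -0.12 across the 2070 members, -0.26 across the 390 peaks of shorter exons and -0.11 across the 2087 of longer exons.

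Transcripts with a member peak were moderately expressed. Their median quantile was 0.764 (quartiles 0.665 and 0.860), against 0.799 for all transcripts with any peak. The share of coding transcripts with a member was 0.722% at quantiles of 0.4 to 0.5, 7.65% at 0.5 to 0.6 and 14.0% at 0.6 to 0.7. It was highest at 0.7 to 0.8, with 17.6% (16.1 to 19.2%), and was then 14.7% at 0.8 to 0.9, 7.43% at 0.95 to 0.98 and 6.05% (4.27 to 8.50%) above 0.98. Members made up 22.2% of the peaks of coding transcripts at 0.5 to 0.6, and 7.49% above 0.98. Fewer RNA molecules leave fewer reads, and how far detection shaped the lower bins was not tested.

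Many of these transcripts carried further peaks. Of the 1518, 474 (31.2%) had no other peak, 492 had 2 peaks, 282 had 3 and 270 had 4 or more. A stop codon peak was also present in 517 (34.1%, 31.7 to 36.5%), against 27.3% (22.5 to 32.6%) of 297 transcripts with a coding sequence peak in a shorter exon and no member, and 32.8% (29.9 to 35.8%) of 977 with one in a longer exon and no member. The intervals of these 3 groups overlap. Over all 11827 coding transcripts with an expression quantile of at least 0.5 the share was 27.8% (27.0 to 28.6%), below the interval of the member transcripts. A transcript start peak was present in 9.03% (7.69 to 10.6%) of the member transcripts, against 4.71% (3.55 to 6.22%) of those with a longer exon and 9.76% (6.88 to 13.7%) of those with a shorter exon. Over all coding transcripts from the same quantile upward it was 13.1% (12.5 to 13.7%), above the interval of the member transcripts. That set includes member transcripts and transcripts without any peak, so neither comparison with it can show a link between the kinds of peak.

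Where a transcript had exactly 1 member and 1 peak of another kind, both scores come from the same RNA. In 341 transcripts with 1 stop codon peak the member was the higher of the pair in 135 (39.6%, 34.5 to 44.9%), with medians of 3.25 for the member and 3.63 for the stop codon peak. Against a transcript start peak the member was higher in 68 of 105 (64.8%, 55.3 to 73.2%), with medians of 3.32 and 2.72. Against a coding sequence peak in an exon under 400 nt it was higher in 34 of 47 (72.3%, 58.2 to 83.1%), with medians of 3.75 and 2.72. Against a coding sequence peak in an exon of 1500 nt and over it was higher in 20 of 51 (39.2%, 27.0 to 52.9%), with medians of 3.04 and 3.32, the opposite order to the medians over all peaks of both kinds. Against a 3' UTR peak it was higher in 70 of 134 (52.2%, 43.8 to 60.5%), and the intervals of both these shares include an even split.

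Most member exons held 1 peak, and some held several. There was 1 member peak in 1374 exons, and 279 exons had 2, 38 had 3 and 6 had 4. Neighbouring peaks of the same exon were a median of 335 nt apart, and 11 of 373 such pairs (2.95%) were under 100 nt apart, which is about the fragment length.

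USP35, a deubiquitinase gene, had 4 member peaks in exon 10 (1297 nt), with scores of 2.35, 2.28, 4.04 and 3.07 from 5' to 3'. KIAA1267 (now KANSL1, a subunit of a histone acetyltransferase complex) had 2.97, 2.26, 3.29 and 3.89 in exon 1 (1378 nt). STARD8 had 2.32, 3.66, 2.32 and 3.70 in exon 5 (1418 nt). PLEKHG3, a guanine nucleotide exchange factor gene, had 3.23, 2.85, 2.86 and 2.00 in exon 14 (1420 nt), all below its stop codon peak of 5.00. With ESPL1 above (exon 3, 1062 nt), these are the 5 with the highest top score among the 6 exons with 4 peaks. The remaining one, in SLFN11, has 2 of its peaks only 12 nt apart.

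Sequence could be read for 219 members in 158 transcripts that matched GENCODE exactly by symbol, chromosome, strand, genomic span and exon. Their median score was 3.18 (3.01 to 3.33) and their transcripts' median expression quantile 0.778. A match within 10 nt of the span raised this to 632 members in 457 transcripts. Of the 218 matched members with a complete coding sequence, 216 lay inside the reference coding sequence, and none lay under 205 nt from the stop codon.

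RRACH was found within 50 nt of 202 of 219 member peaks (92.2%, 87.9 to 95.1%), against 155 of 211 control windows 300 nt away on the same transcript (73.5%, 67.1 to 79.0%). Control windows 200 nt away in the same exon had it in 143 of 207 (69.1%). Over all 3775 windows of 101 nt that tile the coding exons of this length, 68.7% held RRACH. The motif was searched on the RNA strand alone. GGACT, the most frequent RRACH form in the peak windows, was within 50 nt of 78 of 219 peaks (35.6%, 29.6 to 42.2%). It was in 14 of 211 controls (6.64%, 3.99 to 10.8%) and 10.8% of all tiles. The intervals of peaks and controls do not overlap for either motif. For DRACH, which contains RRACH, the shares were 95.4% in peak windows and 83.9% in controls. At 49 coding sequence peaks in exons under 400 nt, GGACT stood at 38.8% against 10.2% in controls 300 nt away, and RRACH at 83.7% against 81.6%. At 278 such peaks in exons of 1500 nt and over, GGACT stood at 25.9% against 7.84% and RRACH at 93.9% against 70.1%.

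The 12 RRACH pentamers were not equally more frequent. GGACT had 3.89 sites per 1000 nt in peak windows and 0.657 in controls, a ratio of 5.92 (86 and 14 sites). AGACT followed with a ratio of 3.05, GGACC with 2.51, GAACT with 2.18 and GGACA with 2.04. AAACC, at 0.84, and AAACA, at 0.78, were no more frequent in the peak windows. All 12 together had 22.9 sites per 1000 nt in peak windows and 12.8 in controls. The median GC content was 57.4% in peak windows and 54.5% in controls, and its part in these ratios was not tested.

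**Figure D2:**
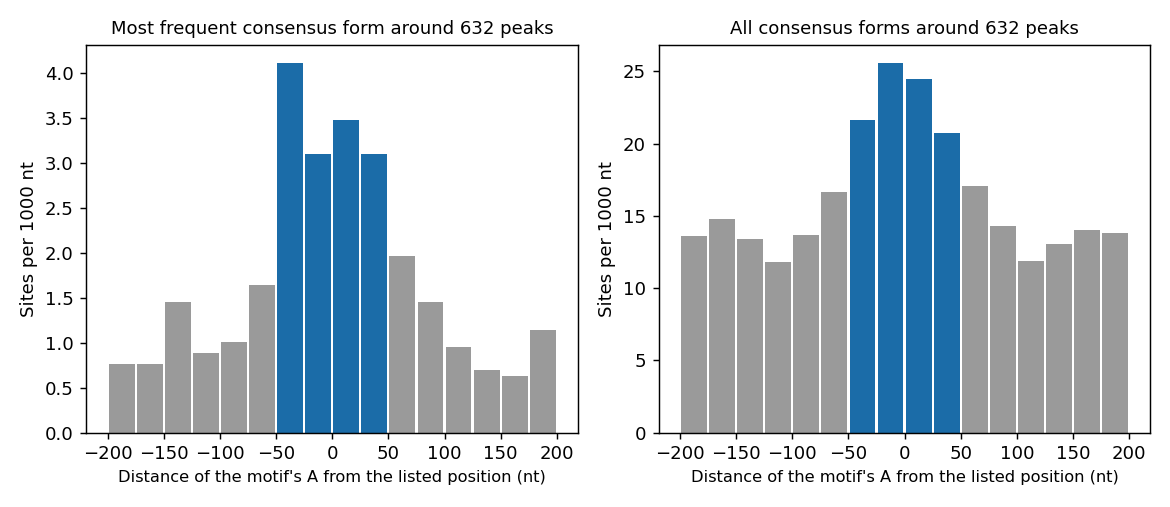
Sites per 1000 nt (vertical axes) of GGACT (left) and of all RRACH forms (right) by the distance of the motif's A from the listed peak position (horizontal axes, nt, in steps of 25 nt), for the 632 members matched within 10 nt, with the 50 nt on either side of the position in blue. GGACT stands at 3.10 to 4.11 sites inside the blue bars and at 0.633 to 1.46 beyond 100 nt, and RRACH reaches 25.6 just upstream of the position.

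Median scores were higher in windows with more copies of the consensus. The median was 2.74 (2.19 to 3.10) for 17 windows with no RRACH, 2.92 (2.56 to 3.21) for 50 with 1, 3.06 (2.78 to 3.33) for 61 with 2 and 3.64 (3.30 to 3.98) for 91 with 3 or more. Each interval overlaps that of the next step, and those of none and of 3 or more do not overlap. In the larger set matched within 10 nt the medians were 2.67, 2.92, 3.20 and 3.61 in the same order. Intervals overlapped for windows with GGACT and those with another form, with a median of 3.19 (2.97 to 3.49) in 78 windows with GGACT and 3.25 (3.01 to 3.56) in 124 windows with another RRACH.

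GGACT in a coding exon can stand in 3 reading frames. In member exons, 87 of 200 GGACT sites (43.5%, 36.8 to 50.4%) lay in the peak windows, which cover 17.5% of the coding bases of those exons. The frame that makes GAC, an aspartate codon, the middle of the site accounted for 50 of 87 sites in windows (57.5%, 47.0 to 67.3%) and 49 of 113 elsewhere in the same exons (43.4%, 34.6 to 52.6%). These intervals overlap. In the set matched within 10 nt the shares were 59.8% (53.1 to 66.2%) in windows and 49.1% (43.5 to 54.8%) elsewhere, which also overlap.

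Peaks in internal exons were sparse near the exon ends. Of 219 matched members, 163 (74.4%) lay in internal exons, 36 in first exons, 18 in last exons and 2 in single-exon transcripts. Of the 163, 3 (1.84%, 0.628 to 5.27%) lay under 50 nt from the nearer exon end, where 13.2% of the exon bases lie, and 11 (6.75%, 3.81 to 11.7%) lay at 50 to 100 nt, also with 13.2% of the bases. At 150 to 200 nt there were 31 (19.0%, 13.7 to 25.7%), again against 13.2%, and at 200 to 300 nt 46 (28.2%, 21.9 to 35.6%) against 21.3%. Per 10000 nt this is 2.27 peaks within 50 nt of an end and 23.5 at 150 to 200 nt. The median distance to the nearer end was 210 nt, and 68 of 163 (41.7%, 34.4 to 49.4%) were nearer the 5' end. In the set matched within 10 nt this share was 47.1% (42.7 to 51.6%), which includes an even split. Listed positions and fragments of about 100 nt limit the resolution, and the part of reads that cross a splice junction was not tested.

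**Figure D3:**
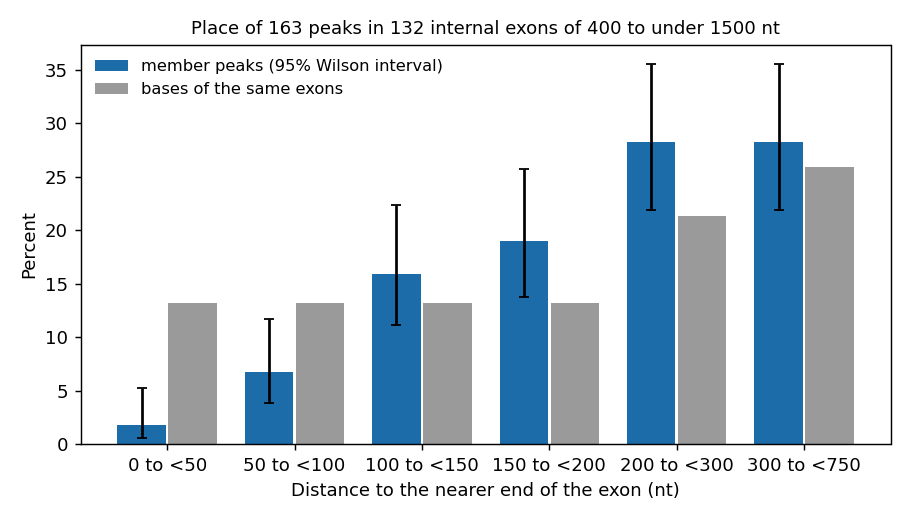
Percent of 163 member peaks in 132 internal exons (blue, with 95% Wilson intervals) and of the bases of the same exons (grey) by distance to the nearer exon end (horizontal axis, nt). Peaks make up 1.84% and 6.75% in the first 2 bins, below the 13.2% of bases in each, and 19.0% at 150 to 200 nt, above it.

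With the coding sequence cut into 5 equal parts from start to stop codon, these held 57, 40, 56, 43 and 20 of 216 members (26.4, 18.5, 25.9, 19.9 and 9.26%). The same parts held 22.7, 22.5, 24.8, 19.1 and 10.9% of the bases of the member exons, and each share's interval included the base share. The 20 members of the last of these parts had the highest median score, 3.91.

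How often a coding exon of this length carried a peak was counted over the exact matches, leaving out bases within 200 nt of the transcript start or the stop codon, which the authors assign to other segments. Transcripts without any peak were matched by symbol, chromosome, strand and span alone, and those with peaks also by exon number and length. The part of this looser match in the shares below was not tested. Of 1017 exons, 176 (17.3%, 15.1 to 19.8%) had a peak, or 5.02 peaks per 10000 coding nt. Exons under 400 nt had one in 47 of 15074 (0.312%, 0.235 to 0.414%), or 0.249 per 10000 nt, and exons of 1500 nt and over in 132 of 444 (29.7%, 25.7 to 34.1%), or 5.82 per 10000 nt. Internal exons of 400 to under 1500 nt had one in 130 of 414 (31.4%). The share was 13.6% at 400 to 600 nt, 15.2% at 600 to 800 nt, 22.5% at 800 to 1000 nt and 23.4% at 1000 to 1500 nt. Per 10000 coding nt, which allows for the room in longer exons, the same steps had 4.66, 4.24, 4.95 and 6.13 peaks.

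By expression, 2 of 357 exons (0.560%) had a peak below a quantile of 0.5, 10.1% at 0.5 to 0.6 and 27.5% at 0.6 to 0.7. At 0.7 to 0.8 the share was 34.7% (27.5 to 42.7%), at 0.8 to 0.9 it was 34.3% and above 0.9 it was 22.3% (15.4 to 31.3%). Strongly expressed exons without one included exon 4 (439 nt) of ACTB, the gene of beta-actin, at a quantile of 1.00, and exon 3 (642 nt) of GATA2, a haematopoietic transcription factor gene, at 0.965. Both of these transcripts had 2 peaks in other places, while OSBP2 (exon 1, quantile 0.976) and AATF (exon 3, quantile 0.944) had no peak at all.

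**Figure D4:**
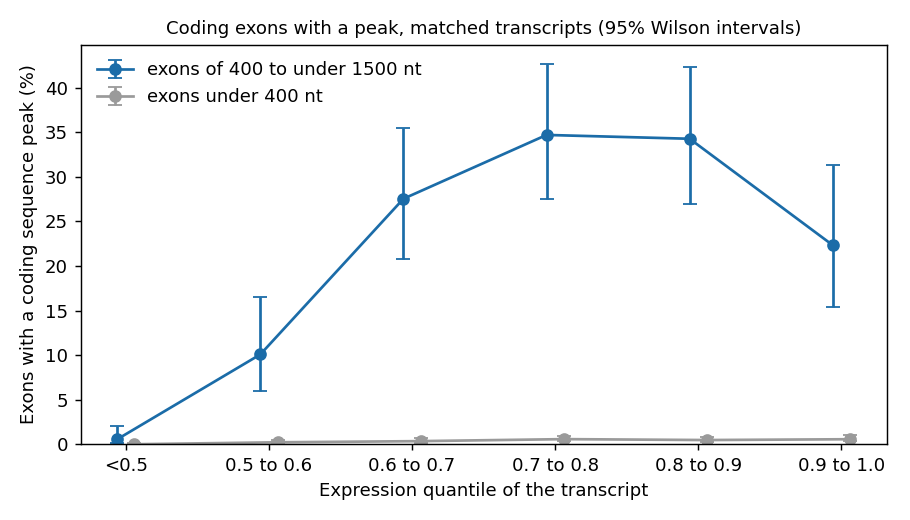
Percent of coding exons with a coding sequence peak (vertical axis, 95% Wilson intervals) by expression quantile of the transcript (horizontal axis) for exons of 400 to under 1500 nt (blue) and under 400 nt (grey) of matched transcripts. The longer exons stand at 34.7% at 0.7 to 0.8 and at 22.3% above 0.9, while the shorter ones reach at most 0.572% in every bin.

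Over all gene symbols of the table, noncoding ones included, the background was 6.14% (1518 of 24721). Over the 19537 coding symbols it was 7.77%, and over the 15004 of these above the lowest expression quantile 10.1%. Over the 9429 symbols with a fitting coding exon in the reference it was 15.4%. Counts for the lists below stand against these values. The lists were chosen with earlier results of these data known, so a share above the background is not independent support. The lists were also more strongly expressed than the table as a whole, whose median quantile was 0.515, and no correction for expression or gene length was made.

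Chromatin modifiers had a member in 25 of 50 genes (95% interval 36.6 to 63.4%), and in 23 of the 38 with a fitting exon (60.5%). Their median expression quantile was 0.829. The histone demethylase gene UTX (now KDM6A) had the highest score, 5.98, in exon 17, and the methyltransferase genes NSD1, MLL2 and MLL3 (now KMT2C) had 5.92, 5.85 and 5.66. Nuclear receptor coregulators had one in 16 of 31 (51.6%, 34.8 to 68.0%), and in 16 of 20 with a fitting exon (80.0%), with a median quantile of 0.833. MED13L, a Mediator kinase module subunit, had 4 member peaks over 2 exons, up to 5.25, its paralog MED13 had 5.07, and the coactivator genes NCOA7 and NCOA2 had 5.20 and 4.81.

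Genes of mitosis and the centrosome had a member in 21 of 54 (38.9%, 27.0 to 52.2%) and in 21 of 35 with a fitting exon (60.0%). CEP152, a scaffold of centriole duplication, had 3 member peaks of 5.22, 4.71 and 5.61, and the kinase gene PLK4 that it recruits had 2.46, 4.08 and 4.89 in exon 5. The kinesin gene KIF14 reached 4.90 and the centriole gene CEP192 4.77. DNA damage and repair genes had a member in 19 of 48 (39.6%, 27.0 to 53.7%) and in 18 of 35 with a fitting exon (51.4%). They were led by the translesion polymerase gene REV1 with 5.86, the checkpoint gene ATRIP with 5.02, and the excision repair genes XPC and ERCC6 with 4.79 and 4.44.

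Of the m6A machinery itself, 6 of 20 genes (30.0%, 14.5 to 51.9%) had a member, and 6 of the 13 with a fitting exon (46.2%). In the writer complex, WTAP had its only peak, of 5.25, in exon 8. ZC3H13 had members of 4.77, 3.37 and 3.47 in exons 10, 14 and 15. KIAA1429 (now VIRMA) had 2.10 and 2.42 in exon 8 and 3.72 in exon 9. The catalytic subunit METTL3 had 3.01 in exon 3, whose 405 nt is just over the lower limit. Receptor and insulin signalling genes had a member in 15 of 45 (33.3%, 21.4 to 47.9%) and in 15 of 31 with a fitting exon (48.4%). Among them, the plexin genes PLXNB2 and PLXNA1 stood at 5.52 and 5.24, the Wnt pathway scaffold AXIN1 at 5.08 and the Ras activator SOS1 at 4.56.

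C2H2 zinc finger genes had a member in 42 of 538 (7.81%, 5.83 to 10.4%). This interval includes both the background of 6.14% and the 7.77% of coding gene symbols. Of those with a fitting exon, 42 of 223 had a member (18.8%, 14.2 to 24.5%), which includes 15.4%. Their 60 member peaks had a median score of 2.67 (2.52 to 3.05), against 3.25 (3.19 to 3.33) for all members and 3.81 (3.41 to 4.33) for the 42 members of chromatin modifiers. ZNF839 had the highest, 5.30, followed by ZNF496 with 4.79, ZSCAN20 with 4.62 and ZNF827 with 4.26. BTB and kelch genes, many of them substrate adaptors of CUL3 ligases, had one in 24 of 112 (21.4%, 14.8 to 29.9%). Of those with a fitting exon, 24 of 69 had a member (34.8%). KLHL13 led them with 6.09, ahead of ZBTB7C with 5.13, KLHL20 with 4.64 and ZBTB44 with 4.46. Cytosolic ribosomal protein genes had none in 79, which allows a share of up to 3.80% by a limit of 3 counts and 4.64% by the Wilson interval. Their median expression quantile was 0.991, and 8 had a peak of any kind. A fitting exon in the reference was present in 21 of the 79, and none of these had a member, with a Wilson limit of 15.5% that includes the 15.4% of all such genes.

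**Figure D5:**
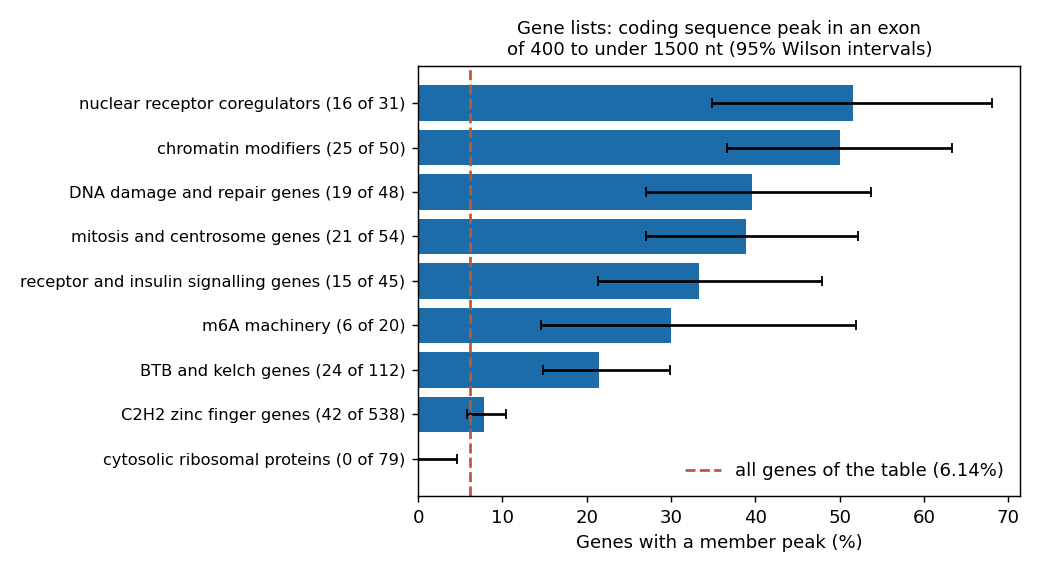
Percent of the genes in each list with a coding sequence peak in an exon of 400 to under 1500 nt (horizontal axis, 95% Wilson intervals, counts in brackets) and the 6.14% over all genes of the table (dashed line). Of the lists, which were chosen with earlier results of these data known, 7 lie above the line with their whole interval. C2H2 zinc finger genes (7.81%) include it and ribosomal protein genes had none. Over coding gene symbols alone the share is 7.77%, over those above the lowest expression quantile 10.1%, and over symbols with a fitting coding exon 15.4%. The bars are not limited to genes of these kinds.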

How the data were processed

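The deposited table covers 7 libraries, 4 m6A-IP and 3 input, grouped by their titles, with no value per library and 0 columns of other samples. Per the file headers the expression values are quantiles, deposited as a fraction, and the peak score is the authors' own score, on a scale not stated. Positions, exon numbers, exon lengths and segments were also deposited by the authors. Which aligner, peak caller and build were used is not given in the sources used here. Start coordinates of matched transcripts differed from GRCh38 throughout, so only transcript sequences and structures of GENCODE release 29 were read, and GRCh38 coordinates are given only for printed windows.

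Medians have 95% order-statistic intervals and shares 95% Wilson intervals. No test was run, because peaks are not replicates. Control windows lay at least 100 nt from any peak. The share of windows with a planted GGACT and the coverage of the median's interval were checked on simulated data. The other counts were not checked in this way. Members and gene lists were chosen with earlier results of these data known. Named are the 10 members with the highest score, the 5 exons with the most members (ties by top score) and up to 4 genes per list by highest member score, with exons without a peak chosen after their values were seen. Python 3.11.15, numpy 2.4.6, pandas 2.3.3, scipy 1.17.1 and matplotlib 3.10.9 were used.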

Additional observations from a re-analysis of the deposited data

How the results depend on the processing

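No paired analysis was possible because the table has no column per library, and for the same reason no replicate could be left out. Of 42 settings tried for the main results, 24 moved the value and 15 left it within its error. The remaining 3 gave 2066 members (1 transcript per symbol), 2384 (exons of 200 to under 1500 nt) and 1417 (400 to under 1000 nt). With scores of at least 3 there were 1243 members (49.1% of coding sequence peaks), and 95.3% of the matched ones had RRACH within 50 nt. The cutoff itself raises the median scores, which were 3.89 (3.82 to 3.94), against 3.53 (3.41 to 3.66) in shorter and 3.86 (3.79 to 3.92) in longer exons. The intervals of members and longer exons overlap. The share of member transcripts with a stop codon peak was 23.9% under this cutoff, which only 2219 of 3432 stop codon peaks reach. Above the median score of all peaks there were 1126 members (49.7%). Members were 52.4% of coding sequence peaks for exons of 200 to under 1500 nt (median score 3.18) and 31.2% for 400 to under 1000 nt. With the highest-scoring peak per gene the members' median was 3.49. With the first per gene it was 3.29 (3.21 to 3.36), against 3.20 (3.11 to 3.26) in longer exons, and these intervals overlap. Above an expression quantile of 0.9 the medians were 2.97 for members, 2.64 for shorter and 3.06 for longer exons, so members no longer led, and 38.8% of member transcripts had a stop codon peak. RRACH was within 25 nt of 72.1% of members and within 100 nt of 97.7%, and GGACT of 17.8% and 45.7%. In place of RRACH, DRACH gave 95.4% and GGACT 35.6%. The causes of these differences were not tested. Of 18 settings for single lists, 13 left the share within its error and 5 moved it. Unknown depth, a score without a scale and sequence for 219 of 2070 members limit all of these values.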
